A study of Drosophila melanogaster with 14 samples.

Results

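Open chromatin was compared between undamaged wing discs of late larvae, labelled L3, and undamaged wing discs that served as the 25 h controls of a regeneration time course. The comparison used 4 of the 14 libraries of the study, 2 from L3 discs and 2 from 25 h controls, chosen by their labels. ATAC-seq was used, where transposase inserts adapters wherever DNA is accessible, and each library was represented by 1 list of peaks from nucleosome-free fragments and 1 list from mononucleosome fragments. Per the labels, the study followed discs at 0, 15 and 25 h after cell death had been induced, and its controls were handled alike with no induction of death. L3 discs stood outside that time course, and both groups were labelled as wing discs of the last larval instar from flies on standard medium, with 10 discs for each genotype and condition. The labels gave no genotype, strain, temperature, sex or exact age for either group, and they named the replicates only by number. Separate animals for the 2 replicates are therefore not stated, and the spread between them may be technical.

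The wing imaginal disc is a sac of larval epithelium that proliferates during larval life and forms the adult wing and notum at metamorphosis. Pulses of the steroid hormone ecdysone drive its later development through early genes such as br, Eip74EF and Eip75B, while chinmo marks the earlier, more plastic larval state. Accessible DNA usually lies at promoters and enhancers, where bound factors displace nucleosomes, and it can extend into the body of a gene that is being transcribed very actively, as at heat shock genes. A library was made from whole discs, so fewer cells with an open site and a weaker signal in each cell cannot be told apart.

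The sequences below carry the main differences, and they were picked after the values had been seen. The promoter of nmdyn-D6 and the regions near chinmo and gt held peaks in both L3 libraries and in neither 25 h control. The promoters of Hsp70Aa and Hsp68 ranked higher in L3 discs. The coding stretches of Hsp70Bbb, Ubi-p5E and nub held nucleosome-free peaks in both 25 h controls and in neither L3 library. The roX2 exon ranked higher in the 25 h controls. All are given 5′ to 3′ on the plus strand of dm6, from the RefSeq Release 6 genome, with annotated UTR bases left out. The printed window is the whole region for nmdyn-D6, chinmo and roX2, and for the others 201 bp at the strongest summit. Capitals mark matches, on either strand, to 1 of 20 short motifs. These were TATCGATA, the DNA replication-related element of housekeeping promoters, in the nmdyn-D6 window, TTCNNNGAA, a STAT-type site, in the gt window, GAGAGAG, the site of the GAGA factor, in the Hsp70Aa and roX2 windows, and ACATTCC, a Scalloped-type site, in the Hsp68 window. CAGCTG, an E-box, was matched in the Ubi-p5E and nub windows, TAATTA, a homeodomain core, in the roX2 window, and the heat shock element in the Hsp70Aa and Hsp68 windows, overlapping itself in Hsp68. Shares were also taken over 201 bp windows at the strongest summit of all 22571 nucleosome-free regions. TATCGATA was found in 3.63%, TTCNNNGAA in 4.25%, GAGAGAG in 10.2% and ACATTCC in 1.86%. CAGCTG was found in 14.2%, TAATTA in 5.09% and the heat shock element in 0.248%. A match describes the letters only.
nmdyn-D6 promoter, chrX:14583605-14583676: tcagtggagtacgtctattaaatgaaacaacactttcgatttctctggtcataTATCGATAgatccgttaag
chinmo upstream region, chr2L:1649550-1649670: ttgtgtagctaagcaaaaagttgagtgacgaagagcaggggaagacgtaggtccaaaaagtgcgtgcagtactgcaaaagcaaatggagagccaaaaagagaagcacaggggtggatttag
gt distal region, chrX:2430776-2430976: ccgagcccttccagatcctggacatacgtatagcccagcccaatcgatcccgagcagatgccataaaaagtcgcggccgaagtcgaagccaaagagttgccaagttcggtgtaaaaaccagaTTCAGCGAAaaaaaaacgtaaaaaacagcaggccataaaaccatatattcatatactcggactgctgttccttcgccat
Hsp70Aa promoter, chr3R:11956545-11956728: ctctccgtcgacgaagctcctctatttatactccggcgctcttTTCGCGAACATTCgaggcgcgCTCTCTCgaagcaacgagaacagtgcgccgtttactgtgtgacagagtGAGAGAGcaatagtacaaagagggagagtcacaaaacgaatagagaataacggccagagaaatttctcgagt
Hsp68 promoter, chr3R:24057311-24057490: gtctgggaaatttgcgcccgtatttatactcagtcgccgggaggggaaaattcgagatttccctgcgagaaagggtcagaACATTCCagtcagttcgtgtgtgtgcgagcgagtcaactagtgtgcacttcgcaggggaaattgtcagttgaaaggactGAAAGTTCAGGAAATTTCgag
Hsp70Bbb coding exon, chr3R:12504300-12504500: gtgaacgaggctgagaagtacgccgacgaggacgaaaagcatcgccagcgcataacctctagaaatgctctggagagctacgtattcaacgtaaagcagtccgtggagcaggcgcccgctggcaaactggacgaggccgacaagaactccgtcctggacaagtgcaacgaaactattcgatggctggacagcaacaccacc
Ubi-p5E coding exon, chrX:6277343-6277543: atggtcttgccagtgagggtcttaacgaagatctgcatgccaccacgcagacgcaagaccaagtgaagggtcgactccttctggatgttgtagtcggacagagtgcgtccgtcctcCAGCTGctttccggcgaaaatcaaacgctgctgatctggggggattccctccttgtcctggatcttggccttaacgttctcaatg
nub coding exon, chr2L:12626795-12626995: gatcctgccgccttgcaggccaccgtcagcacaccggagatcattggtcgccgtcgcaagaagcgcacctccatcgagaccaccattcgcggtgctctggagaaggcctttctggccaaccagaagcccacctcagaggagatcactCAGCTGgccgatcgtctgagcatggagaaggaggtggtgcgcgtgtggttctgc
roX2 exon, chrX:11580154-11580356: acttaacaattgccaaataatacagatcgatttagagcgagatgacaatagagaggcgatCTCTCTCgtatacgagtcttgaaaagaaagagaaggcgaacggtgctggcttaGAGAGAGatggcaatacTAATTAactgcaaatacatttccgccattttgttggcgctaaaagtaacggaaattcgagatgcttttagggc

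The deposited lists held 23956 and 21915 nucleosome-free peaks in the L3 libraries, against 20619 and 21575 in the 25 h controls. Mononucleosome lists held 13206 and 12781 peaks in L3 discs, against 12526 and 12249 in the controls. Both L3 lists were longer than both control lists in each class, and 0.33 is the smallest p that an exact two-sided permutation test over 2 against 2 libraries can give. The lists carry no read counts. A relative depth solved from the fold and p-value of each peak was 3.21 and 2.73 background fragments in L3 discs, against 2.46 and 3.01 in the controls, so it overlapped between the groups. All 30 wing disc patterning factors had a peak at a promoter in each of the 4 libraries, at median percentiles of 83.9 and 83.5 in L3 discs, against 87.1 and 85.5. A promoter peak does not single out a tissue, since tracheal markers had one for 7 and 7 of 7 genes in L3 discs, against 7 and 6, and neuron and eye markers for 6 and 5 of 12, against 5 and 5, at medians from 88.8 to 96.1. Promoters of adult muscle genes had peaks for 2 of 9 genes in each L3 library, against 1 of 9 in each control, fat body markers for 1 of 7 in all 4 libraries, hemocyte markers for 3 and 5 of 10 in L3 discs against 5 and 5 in the controls, and myoblast markers, whose cells underlie the notum, for 8 and 9 of 10 against 6 and 8.

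Most open regions were shared, and the differing minority was larger on the L3 side. Merged peaks gave 27431 nucleosome-free regions, of which 22571 were present in at least 2 of the 4 libraries and 16603 in all 4. Of the 22571, 1238 regions were present in both L3 libraries and neither 25 h control (5.48%), and 424 in both 25 h controls and neither L3 library (1.88%). Among the 16603 regions in all 4 libraries, peaks were ranked within each list by the fold enrichment that the authors' peak caller gave, and only these ranks were set side by side. Ranks of both L3 libraries exceeded those of both controls by at least 20 percentile points at 262 regions (1.58%), and the reverse held at 118 (0.711%). With ranks taken from the −log10 q-value these counts were 187 and 153. For mononucleosome fragments, 518 of 12870 regions were found only in L3 discs (4.02%) and 327 only in the 25 h controls (2.54%), and of 9595 regions in all 4 libraries 113 ranked higher in L3 discs (1.18%) and 85 in the controls (0.886%). The 2 L3 libraries shared 78.3% of their joint nucleosome-free regions and the 2 controls 78.0%, against 73.4% to 75.9% for pairs across groups, while for mononucleosome regions the L3 pair shared 75.7%, within the 72.1% to 76.9% of pairs across groups, and the control pair shared 79.4%.

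**Figure D1:**
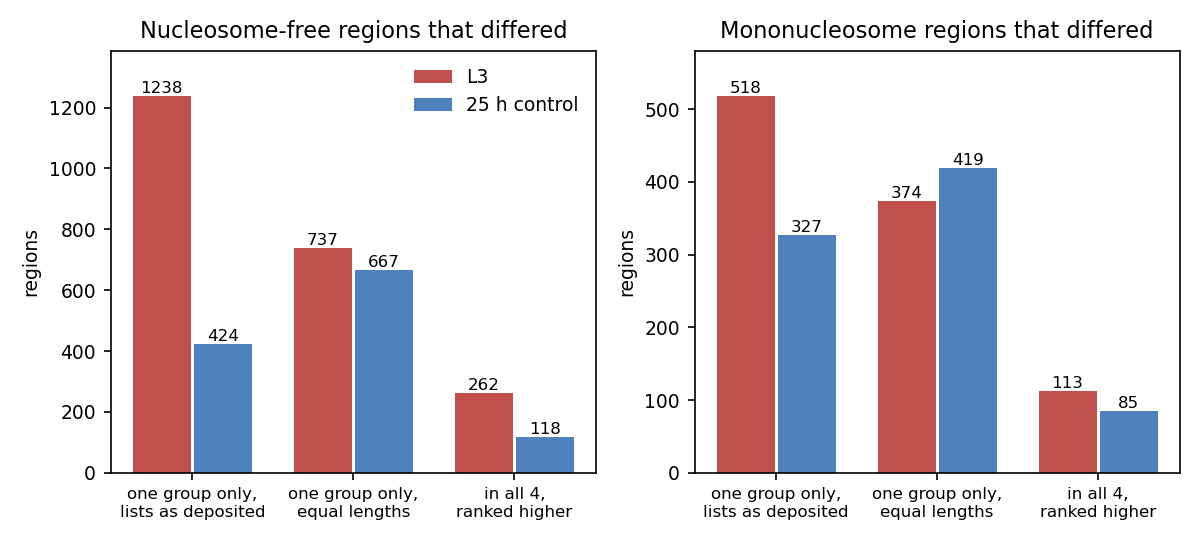
Regions that differed between L3 discs (red) and 25 h controls (blue), as counts on the vertical axis, for nucleosome-free (left) and mononucleosome (right) fragments. With the deposited lists 1238 against 424 nucleosome-free regions were found in one group only, and with lists cut to equal length 737 against 667.

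The excess of L3-only regions depended on list length. With every list cut to the length of the shortest, 737 regions were found only in L3 discs and 667 only in the 25 h controls, and for mononucleosome regions 374 and 419. Called regions mostly held weak peaks: the lower of the 2 rank percentiles had a median of 14.6 in L3-only regions and 11.2 in 25 h-only regions, and they were narrow, with a median of 133 and 144 bp, against 252 bp for regions in all 4 libraries.

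The 8 highest ranked L3-only promoters included genes of ion transport, nucleotide and lipid metabolism and translation. A promoter here is a region within 200 bp of an annotated start. The chloride channel gene ClC-b (chr2R:12571956-12572084) had a peak at its start at percentiles 74.2 and 76.7 of fold within the L3 lists (100 being the top of a list) and none in either 25 h control. The promoter of nmdyn-D6 (chrX:14583605-14583702), a member of the nucleoside diphosphate kinase family and printed above, lay at 74.5 and 66.9 in L3 discs and had no peak in the controls. Both groups were fully separated at these promoters, as the rule required. The other leading promoters were those of Kdsr (chr3R:25262471-25262578), which encodes an enzyme of sphingolipid synthesis and stood at 79.4 and 66.9 in L3 discs, eIF2beta (chr3L:12526680-12526786), a translation initiation subunit, at 76.7 and 66.9, and CG32264 (chr3L:3806422-3806502), at 70.7 and 68.9. Those of elg1 (chr3L:16132008-16132105), which acts in DNA replication, CG9799 (chr3R:13388690-13388787) and Miga (chrX:8436756-8436847), a mitochondrial protein gene, ranged from 63.5 to 69.0 in the L3 lists. None of these was a site of L3 discs alone in the wider study: nmdyn-D6 and Kdsr had the peak in 4 of the 4 controls of other times and in 6 of 6 regenerating libraries, and ClC-b in 3 of 4 and 2 of 6.

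Away from promoters, the highest ranked L3-only regions lay mostly on the X chromosome. The region 400 bp from a start of flw (chrX:10386360-10386502), the gene of a protein phosphatase 1 catalytic subunit, was at percentiles 72.2 and 67.6 in L3 discs, and that in an intron of Shmt (chrX:5915768-5915909), an enzyme of one-carbon metabolism, at 75.3 and 61.4. The region in a 3′ UTR next to Rbf (chrX:801718-801851), the retinoblastoma family gene of the cell cycle, was at 60.1 and 64.1. The region 1782 bp from gt (chrX:2430749-2431178), the gap gene giant of the early embryo, stood at 60.7 and 58.0, and it had a peak in all 4 controls of other times and all 6 regenerating libraries. The chinmo region (chr2L:1649550-1649670), intergenic and 1588 bp from the start, was at 58.5 and 55.0 in L3 discs. It was open in 3 of the 4 other controls and in 6 of 6 regenerating libraries. The remaining 3 of the 8 lay next to S6kII (chrX:22529670-22529758), a kinase gene, and to the non-coding genes CR45695 (chr2L:1638467-1638612) and CR43298 (chrX:4021912-4022109), at percentiles from 55.8 to 65.6.

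The highest ranked regions of the 25 h controls were fewer at promoters and often lay in the transcribed part of a gene. At promoters, Kap-alpha3 (chr3R:9577702-9577789), an importin gene, stood at percentiles 53.7 and 61.2 of the control lists and had no peak in L3 discs. Lrrk (chr3R:20635772-20635913), a kinase gene, was at 51.0 and 47.5, and Maf1 (chr2R:1521635-1521802), a repressor of RNA polymerase III, at 37.8 and 47.5. The promoters of rod (chr3R:31580864-31580962), a kinetochore gene, Cpsf6 (chr3L:8315232-8315322), of messenger RNA 3′ end processing, Aasdh (chr2L:8449524-8449646), CG34242 (chr3L:12533927-12534026) and CG33181 (chrX:8489726-8489974), which shares its start with otu, ranged from 31.9 to 56.1. The rod region was no longer called when regions were merged over all 14 libraries, and the Cpsf6 region when peaks within 100 bp were merged. Farther from starts, the region in the 3′ UTR of Usf (chrX:4545052-4545191), a bHLH factor gene, was at 73.2 and 81.6 in the controls, and 2 neighbouring regions by the non-coding gene CR45708 (chrX:13342060-13342235 and chrX:13341783-13341894) were at 71.6 and 73.9 and at 69.9 and 61.2. The 3′ UTRs of Mipp2 (chrX:6083221-6083336), a phosphatase gene, and Socs16D (chrX:17821694-17821787), a SOCS-box gene, stood at 62.8 and 63.0 each. All 8 of these regions, the others being near CG14227 (chrX:19689314-19689447), in an intron of CG17841 (chrX:10382472-10382640) and in Ubi-p5E, were on the X.

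The 2 sets differed in where they lay. Of L3-only regions, 24.0% were at promoters (297 of 1238, exact 95% binomial interval 21.6% to 26.5%), against 14.9% of 25 h-only regions (63 of 424, 11.6% to 18.6%) and 40.9% of regions in all 4 libraries. Coding exons held 4.04% of L3-only regions (50) and 30.0% of 25 h-only regions (127), against 2.78% of regions in all 4. Seen the other way, of the 933 coding-exon regions tested 5.36% were L3-only and 13.6% were 25 h-only. Introns held 47.4% of L3-only and 32.5% of 25 h-only regions. These intervals cover counting error only. With lists of equal length the coding-exon share of 25 h-only regions was 22.0%, and with the first L3 library left out it was 16.6%.

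**Figure D2:**
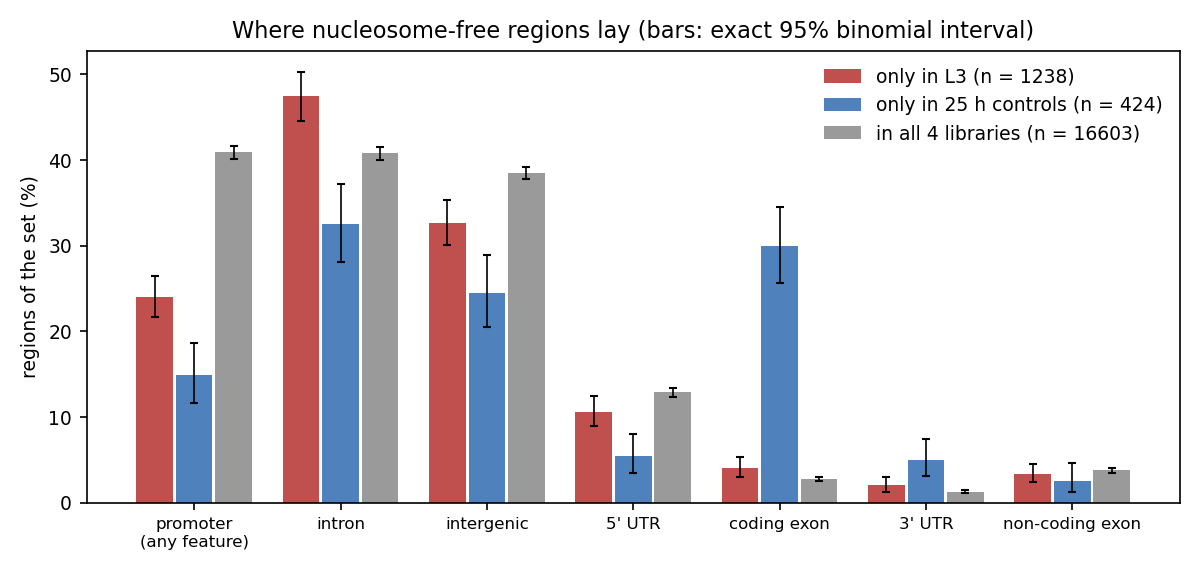
Share of nucleosome-free regions (vertical axis, percent) by annotated place, for regions found only in L3 discs (red), only in 25 h controls (blue) and in all 4 libraries (grey), with exact 95% binomial intervals as error bars. Promoters are counted whatever the feature. Coding exons hold 30.0% of the 25 h-only regions and 4.04% of the L3-only regions.

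The coding-exon regions of the 25 h controls fell in 100 genes, and 7 genes held at least 3 of them. In lola, a BTB zinc finger gene, 6 of 8 coding-exon regions were 25 h-only, and in br, whose BTB zinc finger proteins answer ecdysone, 4 of 7. All 4 in ovo, a zinc finger gene of the epidermis and germ line, and all 3 in each of Eip75B, Hsp68 and Hsp70Ba were 25 h-only, as were 3 of 4 in nub, the POU factor of the wing pouch. None of the coding-exon regions in these 7 genes was L3-only. Many of these peaks were weak. By nearest start, the lower control percentile of 25 h-only regions ran from 2.38 to 17.5 at lola and from 1.36 to 10.6 at ovo. At a −log10 q of at least 5, some of the 25 h-only regions at lola, ovo, Hsp68 and Hsp70Ba were no longer called. Over whole libraries, coding exons held 4.17% and 3.18% of nucleosome-free peaks in L3 discs, against 5.06% and 5.15% in the 25 h controls. The groups did not overlap, and the exact permutation p was 0.33, the smallest the design allows. GC content moved with this difference: the 127 regions had a median GC of 57.2% in their windows, against 53.7% for all 933 coding-exon regions and 47.3% for all regions. Its part in the result was not tested.

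Several heat shock promoters ranked higher in L3 discs, and most coding-exon regions of heat shock genes were 25 h-only. Only Hsp68 and Hsp26 had both a start that leaned to L3 discs by the rules and a 25 h-only coding region. The Hsp68 start ranked higher in L3 discs, and a region at the Hsp26 start was L3-only. The list held 19 genes of chaperones and their regulators, of which 18 had a region. The promoter of Hsp70Aa (chr3R:11956440-11956740), which encodes the main inducible chaperone and is printed above, lay at percentiles 86.5 and 93.6 in L3 discs, against 18.4 and 39.0 in the 25 h controls. The authors' fold there was 13.7 and 17.6 in L3 discs, against 4.14 and 5.26 in the controls, and the groups were 55.7 points apart in rank among the 16603 shared regions. The Hsp70Ab promoter (chr3R:11958334-11958617) lay at 85.1 and 91.9 in L3 discs, against 20.4 and 39.7, and the Hsp68 promoter (chr3R:24057214-24057529), of a related chaperone, at 87.4 and 85.1, against 39.0 and 43.0. The 25 h controls were low at Hsp70Aa and Hsp68 beside the other times of the study, where the 10 other libraries ranged from 41.5 to 96.5 at Hsp70Aa and from 47.7 to 91.3 at Hsp68. A region shared by the starts of Hsp22 and CG4456 (chr3L:9372851-9373078), a small heat shock gene and its neighbour, lay at 74.2 and 78.1 in L3 discs, against 50.1 and 53.5, a gap that no longer passed at 30 points or with ranks taken from the −log10 q-value. The Hsp70Ba promoter (chr3R:12467664-12468047) was near the top of every list, at 99.9 and 99.8 in L3 discs, against 97.8 and 99.4. Promoters of Hsp23, DnaJ-1, Hsc70-4 and Hsp70Bb were also higher in both L3 libraries than in both controls, but did not pass the 20-point rule. At Hsp23 (chr3L:9381631-9381898) the percentiles were 27.2 and 23.3, against 10.6 and 9.31. At Hsc70-4 (chr3R:15242486-15242734) they were 81.7 and 80.5, against 67.6 and 64.3. The promoters of Hsf, Hsp83 and stv did not lean towards L3 discs. That of Hsp83 (chr3L:3192998-3193479), the Hsp90 gene, lay at 12.6 and 35.2 in L3 discs, against 28.9 and 10.5, so the groups overlapped, and that of stv (chr3L:13477134-13477621), a cochaperone gene, at 81.9 and 83.2, against 87.4 and 90.1.

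Of 18 regions in coding exons of heat shock genes, 14 were 25 h-only, none was L3-only and 4 were called in neither direction. The coding exon of Hsp68 held 3 regions, at chr3R:24056474-24057074, chr3R:24056156-24056379 and chr3R:24055231-24056076, with peaks in both 25 h controls and in neither L3 library. The first of these stood at percentiles 31.6 and 18.3 of the control lists. The coding exon of Hsp23 (chr3L:9382047-9382563), a small heat shock protein, had no peak in L3 discs and stood at 7.01 and 13.1 in the controls. Coding regions of Hsp26, Hsp83, DnaJ-1, Hsc70-4, Hsp70Ba, Hsp70Bb and Hsp70Bbb were also 25 h-only. Hsp70Bbb (chr3R:12504146-12504566) ranked highest of the 14, at 52.8 and 53.1. Of the 4 uncalled regions, that of Hsp27 (chr3L:9384231-9384722) had a peak in all 4 libraries, at 0.121 and 0.516 in L3 discs, against 2.95 and 5.61 in the controls. The others had a peak in the first L3 library but not the second: Hsp70Aa (chr3R:11954326-11956302) at 2.20, against 37.0 and 37.6, Hsp70Bc (chr3R:12509366-12510291) at 23.6, against 54.4 and 55.2, and a second Hsp83 region (chr3L:3195712-3196954) at 26.5, above the 13.5 and 14.4 of the controls. In all, 9 of 18 genes of the list held a 25 h-only region, 14 regions in total and all of them in coding exons, against 4.78% of the 9573 genes with a region. L3-only regions were found in 3 of the 18, at the start of Hsp26 and upstream of Hsp27 and stv, against 13.4% of all genes. A region ranked higher in L3 discs at 5 of the 18 genes, against 3.11% of all genes, and none ranked higher in the controls, against 1.41%. These 5 genes counted Hsp22 and CG4456 separately, although their starts share the same region. The others were Hsp68 and the near-identical copies Hsp70Aa and Hsp70Ab. Over the 21 regions of the list present in all 4 libraries the median rank difference was 8.90 points towards L3 discs, against −0.56 over all shared regions.

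The 14 called coding-exon regions, whose presence in the controls and absence in L3 discs was fixed by the calling rule, were also scored in the libraries that the comparison did not use. They had a peak at 1 and 4 of 14 in the 0 h regenerating libraries and at 0 and 2 in the 0 h controls. At 15 h they had 11 and 11 in regenerating discs and 10 and 8 in controls, and at 25 h 5 and 11 in regenerating discs. The Hsp70 genes are near-identical copies, and how reads that match several copies were placed is not given in the sources used here, so their single values are uncertain. Hsp23, Hsp26 and Hsp68, which also held 25 h-only coding regions, are not part of that cluster. With a −log10 q of at least 5, the Hsc70-4 region, 1 of the 3 in Hsp68 and 1 of the 3 in Hsp70Ba were no longer called.

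**Figure D3:**
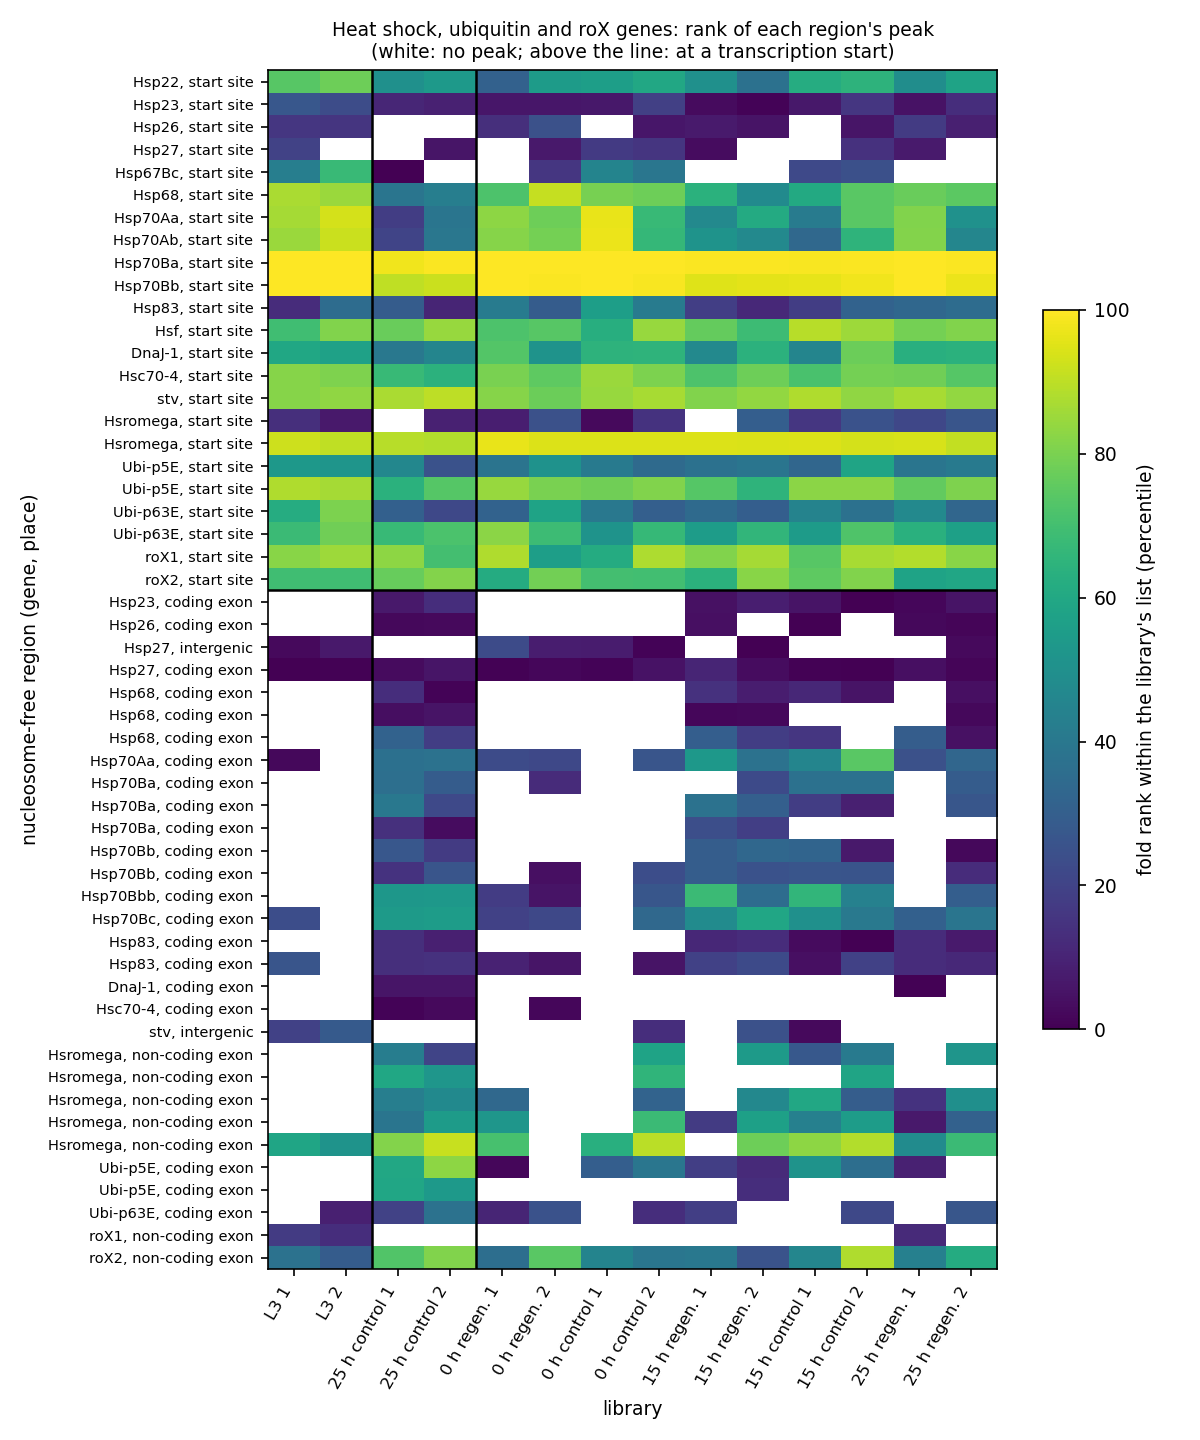
Rank percentile of the authors' fold within each library's list (colour, 0 to 100, white for no peak) for 53 nucleosome-free regions of heat shock, ubiquitin, Hsromega and roX genes, with libraries across and L3 discs at the left, followed by 25 h controls. The 23 regions above the line lie at a transcription start. The 30 below it are all coding-exon regions of these genes and, elsewhere, only regions that were called, and of 18 heat shock coding-exon regions 14 are white in both L3 columns and filled in both control columns.

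The regions of polyubiquitin genes and the heat-inducible RNA Hsromega were looked at after these values had been seen. In the coding exon of Ubi-p5E, which encodes head-to-tail repeats of ubiquitin, 2 regions had no peak in L3 discs. The first (chrX:6277303-6277533, printed above) was at percentiles 60 and 83.0 of the control lists and the second (chrX:6277776-6277884) at 59.3 and 53.7. The first had a peak in 8 of the 10 other libraries and the second in 1. At a start of Ubi-p63E (chr3L:3901915-3902104), the other polyubiquitin gene, L3 discs stood at 61.7 and 80.4, against 30.8 and 21.7 in the controls. That gap no longer passed at 30 points or with ranks taken from the −log10 q-value. Ubiquitin repeats are near-identical within and between these genes, so these values are uncertain. The non-coding gene Hsromega, whose transcripts gather splicing factors under heat, had 4 regions along its exons with no peak in L3 discs, at control percentiles from 20.6 to 59.7, and another region (chr3R:21308400-21308537) at 58.9 and 51.3 in L3 discs, against 81.6 and 91.8. Its start (chr3R:21296362-21297629) differed little, at 92.3 and 90.3 in L3 discs, against 89.3 and 88.5.

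The exon of roX2 gave the widest gap of any nucleosome-free region towards the 25 h controls. The gene makes a non-coding RNA of the male dosage compensation complex, which doubles as a site where that complex loads on the X chromosome. The exon region (chrX:11580154-11580356, printed above) lay at percentiles 37.6 and 29.2 in L3 discs, against 72.8 and 81 in the controls, a gap of 46.9 points among shared regions. In the 10 other libraries it ranged from 25.4 to 88.1, so it varied widely within the study. A roX1 exon region (chrX:3861140-3861484), looked at after the roX2 value was known, lay at 82.4 and 84.8 in L3 discs, against 92.4 and 95.0, which was below the 20-point rule. Another roX1 exon region (chrX:3858534-3858624) went the other way. It was L3-only, at 17.3 and 13.0, but was no longer called with lists of equal length. In mononucleosome fragments a roX1 exon region (chrX:3861039-3862003) ranked higher in the controls. It lay at 28.6 and 33.4 in L3 discs, against 56.5 and 71.7, and no longer passed at 30 points. The labels do not give the share of male larvae, and its part in these values was not tested.

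Ecdysone genes held more 25 h-only than L3-only regions, although as many genes of the list were touched on each side. Of 21 ecdysone response genes, 6 held an L3-only region and 6 a 25 h-only region, against 13.4% and 4.78% of all genes. Their 7 L3-only and 19 25 h-only regions were 2.47% and 6.71% of 283, against 5.48% and 1.88% of all regions. Coding exons of br and Eip75B, the gene of a nuclear receptor induced by ecdysone, contributed to the 25 h side. At br, the exon region chrX:1659214-1659762 was at percentiles 50 and 32.4 of the control lists and had no peak in L3 discs. In the last part of Eip75B (chr3L:17954123-17954886) the controls stood at 12.8 and 28.7. An intronic region of Hr4 (chrX:1989881-1990250), another nuclear receptor gene, was at 46.5 and 38.3 in the controls. On the L3 side, an intronic region of ftz-f1 (chr3L:18787150-18787236), the competence factor that acts between ecdysone pulses, was at 21.7 and 22.4, and one of br (chrX:1642089-1642229) at 22.9 and 21.6. The ftz-f1 region was no longer called with lists of equal length. One region in Eip74EF (chr3L:17592455-17592595), the gene of an Ets factor, was L3-only at 12.1 and 12.9. Of the regions nearest to each gene, br had 33, with 1 L3-only and 4 25 h-only, Eip74EF 22 with 1 and 0, Eip75B 34 with 0 and 4, and Eip93F 15 with 0 and 0. Called regions of this list ranked low, and the whole set had a median rank difference of −1.16 points, against −0.56 for all shared regions.

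Genes of larval timing were touched in both directions. Among 9 temporal factors, chinmo, Imp, mamo and br held L3-only regions, and Syp and br held 25 h-only regions, against 13.4% and 4.78% of all genes. The 7 L3-only regions were 5.11% of 137, close to the 5.48% of all regions, and the 10 25 h-only regions were 7.30%, against 1.88%. The latter all belonged to br or Syp. The gene br is also in the ecdysone list, so its regions count in both lists and the 2 shares are not independent. Imp and Syp encode RNA-binding proteins whose levels change in opposite directions over larval life in neural progenitors. The second L3-only region of chinmo lay in an intron (chr2L:1689570-1689871), at percentiles 28.9 and 45.9, and that of mamo (chrX:13928395-13928541), a zinc finger gene, was at 35.2 and 43.0. The 25 h-only region in a coding exon of Syp (chr3R:20805863-20806097) was at 14.7 and 36.4 of the control lists and was no longer called at a −log10 q of at least 5. The promoter of chinmo itself (chr2L:1651122-1651468) was open in all 4 libraries, at 87.1 and 87.0 in L3 discs, against 94.5 and 92.5. lin-28 had no region.

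Wing patterning genes held called regions at about the share of all regions. Of 30 patterning factors 15 held an L3-only region, against 13.4% of all genes, and 5 held a 25 h-only region, against 4.78%. These genes have many regions, 408 in all, of which 24 (5.88%) were L3-only and 8 (1.96%) 25 h-only, against 5.48% and 1.88% of all regions. Their shared regions had a median rank difference of −2.39 points. An intronic region of Lim1 (chrX:8764813-8764915), a homeodomain gene of the proximal disc, was at percentiles 50.9 and 48.6 in L3 discs, one 13031 bp from salm (chr2L:11432417-11432583), a target of the morphogen Dpp, at 42.4 and 27.6, and one in an intron of ct (chrX:7633634-7633948), which acts at the wing margin, at 35.2 and 22.4. None of the 3 had a peak in the 25 h controls. On the other side, the coding exon of nub printed above (chr2L:12626020-12627139) was at 17.9 and 28.5 of the control lists. An intronic region of Ubx (chr3R:16715813-16715928), the Hox gene of the haltere, was at 34.1 and 31.2. The nub region also had a peak in 3 of the 4 other controls and in 6 of 6 regenerating libraries. Mononucleosome peaks of both L3 libraries overlapped it. At wg, the Wnt ligand of the wing margin, none of 9 nearby regions was called in either direction. Its promoter (chr2L:7306802-7307201) lay at 98.2 and 97.5 in L3 discs, against 99.5 and 98.2.

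Of 15 genes that respond to damage 5 held an L3-only region, against 13.4% of all genes, and their 10 regions were 11.8% of 85, against 5.48% of all regions. None held a 25 h-only region, which at 4.78% of all genes is near the overall share for a list of this size. Examples were in introns of Atf3 (chrX:1269477-1269846), a stress-induced bZIP factor gene, at percentiles 58.0 and 44.4, and of Pvf2 (chr2L:7076055-7076163), which encodes a ligand of the receptor Pvr, at 38.4 and 30.3. A start of Pvr (chr2L:8239071-8239189) was at 20.4 and 18.6, and Mmp2 and Pvf3 held the others. The Pvr region was no longer called with lists of equal length. Their 60 regions present in all 4 libraries had a median rank difference of −0.73 points, close to that of all shared regions.

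The X chromosome ranked higher in L3 discs and the small chromosome 4 ranked higher in the 25 h controls. Among shared nucleosome-free regions the median rank of X regions was 53.7 and 52.1 in L3 discs, against 48.1 and 48.2 in the controls (52.9 ± 1.12 against 48.2 ± 0.0809, SD, n = 2 each, exact permutation p = 0.33). Of 4209 X regions 7.75% were L3-only, against 4.99% of 18134 regions on chromosomes 2 and 3, and 2.42% and 1.70% were 25 h-only. Regions ranked higher in L3 discs made up 3.84% of shared regions on the X and 1.10% on chromosomes 2 and 3. On chromosome 4, 6.14% of 228 regions were 25 h-only and 3.07% L3-only, and the median rank was 58.7 and 57.0 in L3 discs, against 67.6 and 66.3 in the controls. For mononucleosome regions 7.93% of those on the X were L3-only, against 3.26% on chromosomes 2 and 3, and 17.0% of the 159 on chromosome 4 were 25 h-only.

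**Figure D4:**
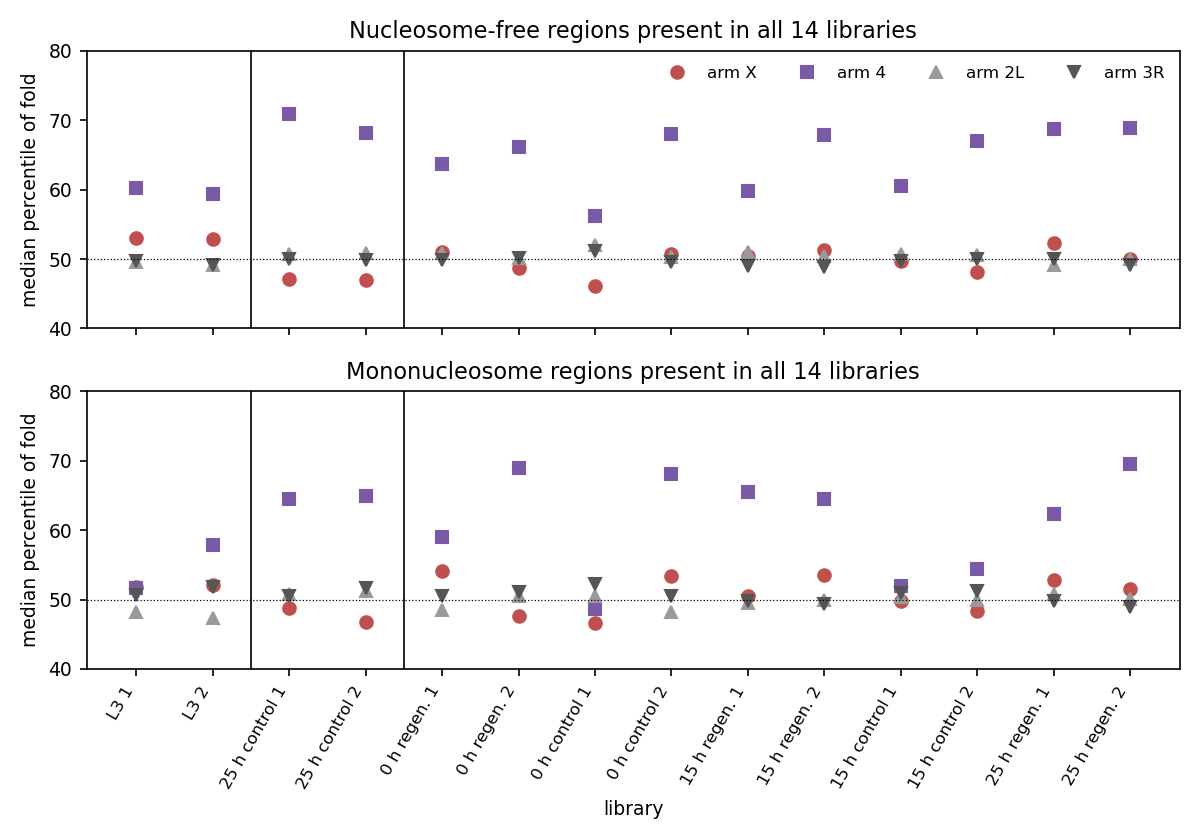
Median rank percentile of the authors' fold for regions on arms X, 4, 2L and 3R (symbols) in each of the 14 libraries, over regions present in all 14, for nucleosome-free (top) and mononucleosome (bottom) fragments. The 2 L3 libraries at the left have the highest nucleosome-free X medians of the plot, 53 and 52.9, and the 25 h controls next to them stand at 47.1 and 47.1. Their mononucleosome X medians, 51.8 and 52.1, are above the 48.8 and 46.8 of the controls but below 4 of the 10 other libraries.

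Without the X, 912 nucleosome-free regions were L3-only and 322 were 25 h-only, and 168 and 80 were ranked higher in L3 discs and in the controls. For mononucleosome regions the corresponding counts were 344 and 286 L3-only and 25 h-only regions, and 70 and 66 by rank. Over regions present in all 14 libraries the X median varied among the 10 other libraries too, from 46.1 in a 0 h control to 52.3 in a 25 h regenerating library. The sex of the larvae and the X copy number they would bring were not given, and their part was not tested.

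Among shared nucleosome-free regions, the widest gaps towards L3 discs were again at promoters. The divergent start of CG11617 and Tbc1d15-17 (chr2L:207255-207449), Tbc1d15-17 being a gene of a Rab GTPase-activating protein, lay at percentiles 87.8 and 88.0 in L3 discs, against 8.56 and 1.70 in the 25 h controls, a gap of 78.2 points among shared regions. The promoters of Ak6 (chr2R:12569793-12569962), an adenylate kinase gene, Trs20 (chr3L:16131566-16131685), of vesicle tethering, and Coa8 (chrX:1880415-1880792), of cytochrome oxidase assembly, were 58.8, 58.7 and 56.6 points apart. Towards the controls, roX2 was followed by the promoter of LManII (chr2L:10457494-10457781), a mannosidase gene, at 55.1 and 33.9 in L3 discs, against 86.5 and 85.6. A region 208 bp from CG14990 (chr3L:4092863-4092999), one in dati (chr4:393463-393711), a zinc finger gene, and one in GEFmeso (chr2R:18583297-18583600), a guanine exchange factor gene, were 42.3, 38.9 and 38.9 points apart.

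Mononucleosome fragments named partly the same places. The widest gaps towards L3 discs were at the promoter of Idgf4 (chrX:9930722-9931309), an imaginal disc growth factor, which lay at percentiles 92.1 and 94.5 in L3 discs, against 32.8 and 51.5, and at CR44839 (chrX:644203-644466), at 87.8 and 92.2, against 50.1 and 38.1. Towards the controls, the widest gap lay in an intron of Bsg (chr2L:8104121-8104636), the basigin gene, at 33.4 and 36.0 in L3 discs, against 80.5 and 71.3. Present only in L3 discs were a region far from RYa (chr2R:3750539-3750812), at 69.6 and 82.6, and 1 in a ribosomal RNA pseudogene on the X (chrX:23279637-23279861), at 64.6 and 70.5. Present only in the 25 h controls were CR45708 (chrX:13341585-13342296), at 78.9 and 78.9, the 3′ UTR of Ubr1 (chrX:16956657-16956911), a ubiquitin ligase gene, at 71.8 and 73.2, the coding exon of Ubi-p5E (chrX:6277205-6277528), at 64.9 and 80.9, and that of HIP-R (chrX:3790748-3791577), a cochaperone gene, at 58.0 and 64.8. CR45708 and Ubi-p5E were 25 h-only in both fragment classes. Over all nucleosome-free regions, 61 of the 1238 L3-only regions overlapped mononucleosome peaks of both L3 libraries and of neither control (4.93%). Of the 424 25 h-only regions, 57 overlapped mononucleosome peaks of both controls and of neither L3 library (13.4%). The corresponding shares of all regions tested were 1.94% and 1.27%.

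Sequence content differed between the 2 sides, as found in splits chosen after the values had been seen. The median GC content of the windows was 45.3% in L3-only and 50.7% in 25 h-only regions, against 47.3% in all regions tested, and at promoters 40.3% and 50.2%, against 44.8%. The GAGA motif was present in 24.6% of the 118 regions ranked higher in the 25 h controls and in 6.87% of the 262 ranked higher in L3 discs, against 11.5% of shared regions. At promoters these shares were 29.3% and 3.77%, and 11.7% of all shared promoters. TATCGATA was present in 12.1% of L3-only promoters and in 15.7% of promoters ranked higher in L3 discs, against 9.22% of all promoters tested, and GGTCACACT, the core promoter motif bound by M1BP, in 8.75% and 11.9%, against 7.40%. TGANTCA, a site of AP-1 dimers, was present in 4.77% of L3-only and 1.42% of 25 h-only regions, against 4.45% of all. GC content differed along with these motifs, and its part was not tested.

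Most called regions were open in some other library of the study. L3-only regions had a peak in 30.0% to 62.1% of cases in each of the 10 other libraries, and 25 h-only regions in 24.3% to 59.0%, against 91.4% to 99.1% for regions in all 4 libraries. Only 53 of the 1238 L3-only regions (4.28%) and 19 of the 424 25 h-only regions (4.48%) were in none of the 10. The coding-exon regions of the 25 h controls had peaks in 21.3% and 22.0% of cases in the 0 h regenerating libraries and 14.2% and 21.3% in the 0 h controls. In 15 h regenerating discs the shares were 57.5% and 68.5%, in 15 h controls 30.7% and 41.7%, and in 25 h regenerating discs 42.5% and 57.5%. The 297 other 25 h-only regions gave 37.0% and 58.6% in 0 h regenerating discs, 28.6% and 30.0% in 0 h controls, and 39.7% to 65.3% at the later times.

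**Figure D5:**
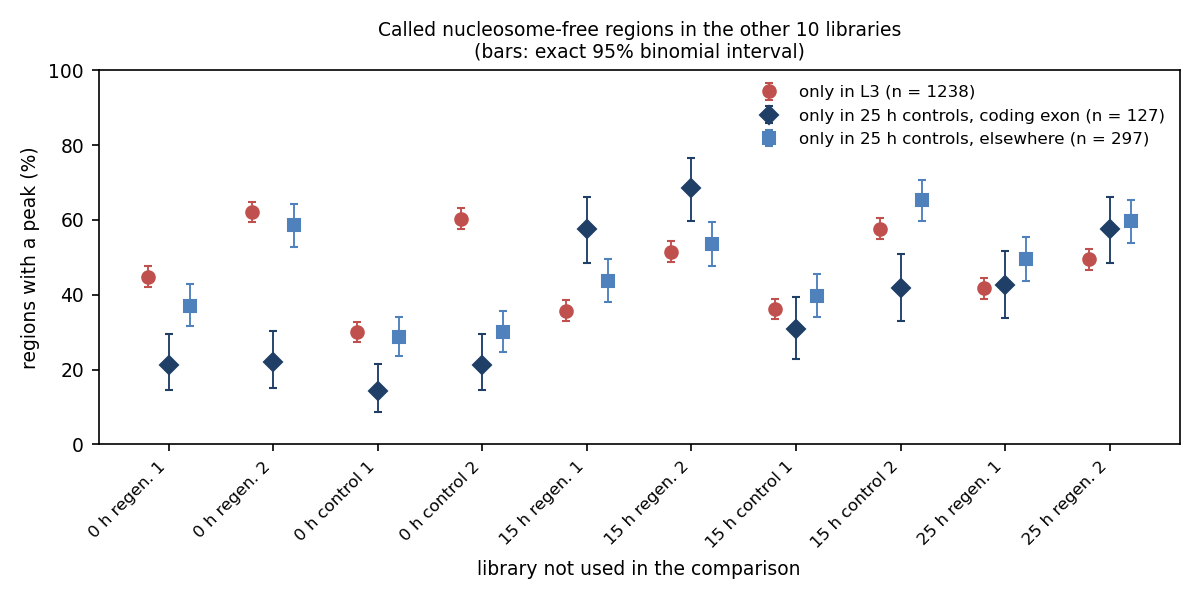
Share of called nucleosome-free regions with a peak (vertical axis, percent) in each of the 10 libraries not used in the comparison, for L3-only regions (red), 25 h-only coding-exon regions (dark blue) and other 25 h-only regions (light blue), with exact 95% binomial intervals. The coding-exon regions stand at 14.2% to 22.0% at 0 h and at 57.5% and 68.5% in 15 h regenerating discs.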

How the data were processed

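Reads were aligned with STAR 2.4.0j to dm6 and peaks were called with MACS2, per the submitters' processing notes, and each deposited list holds 1 library. The labels and notes give neither fragment limits nor a calling threshold. Every peak in a deposited list carries a fold enrichment and −log10 p- and q-values computed by the authors' caller. The fold was used only for ranks within a list.

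Peaks of the 4 libraries that overlapped by at least 1 bp, or touched, were merged into regions per fragment class. A region was called for a group when both of its libraries and neither library of the other group had a peak. For regions in all 4, both ranks of one group had to exceed both of the other by 20 percentile points. Regions were annotated at the summit with Ensembl release 115 (BDGP 6.54), and a promoter lay within 200 bp of a start. A relative depth was solved from fold and p-value for 100% of peaks, at a tolerance of 0.001. Single values per library were compared by exact two-sided permutation tests. The 2 libraries of a group are told apart only by number, so a p-value measures only the spread between libraries. Intervals are exact 95% binomial intervals and cover counting error only.

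Regions were named by rank: in each direction the 8 highest at protein-coding promoters, the 8 highest farther away, the 4 highest in annotated transposable elements, the 5 widest rank gaps, the 5 highest mononucleosome regions, up to 4 per gene list and those nearest to 9 fixed genes. Others were chosen after their values were seen, as stated. The 27 gene lists held 367 symbols, 6 matched through a synonym and 5 unmatched. The members of the comparison and the lists were chosen with earlier results of these data known. The calls were tested on simulated data. Alternatives were a stricter q-value, equal list lengths, other merging rules, a depth filter, other rank rules, a replicate block and leaving out each library. Computation used scipy 1.17.1, pandas 2.3.3 and numpy 2.4.6 under Python 3.11.15, with matplotlib 3.10.9 for figures.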

Additional observations from a re-analysis of the deposited data

How the results depend on the processing

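At a −log10 q of at least 5, L3 lists held 2300 nucleosome-free and 614.5 mononucleosome peaks more on average, so the difference kept its sign. Leaving out 1 library could not change the sign, since both L3 lists were longer than both control lists. It gave 818 to 2859 nucleosome-free and 393.5 to 818.5 mononucleosome peaks more in L3 discs. Counts of called regions moved with the settings. With equal list lengths 737 nucleosome-free regions were L3-only and 667 were 25 h-only. With 1 library left out, the criterion then using the library that remained, these ranged from 1872 to 3244 and from 605 to 1436, and for mononucleosome regions from 925 to 1623 and from 581 to 955. Leaving out the X, chosen after seeing the data, gave 344 L3-only mononucleosome regions. Promoter shares with starts taken within 500 bp were 31.7% (L3-only) and 22.9% (25 h-only) for nucleosome-free and 29.3% and 25.7% for mononucleosome regions, and the L3-only nucleosome-free share was 33.4% with equal lengths.

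The share of X regions that were L3-only was 8.88% at a −log10 q of at least 5, 5.16% with equal lengths and 9.96% to 16.4% with 1 library left out, and on chromosomes 2 and 3 it was 5.46%, 3.13% and 6.32% to 11.4%. The coding-exon share of 25 h-only regions was 22.0% with equal lengths and 16.6% to 29.0% with 1 library left out. These alternatives were chosen after seeing the data.

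Rank shifts moved with the gap asked for. At 10 points, 926 nucleosome-free regions ranked higher in L3 discs and 804 in 25 h controls, and at 30 points 74 and 17. For mononucleosome regions they were 433 and 428, and 31 and 15. With ranks by −log10 q, 187 and 153 nucleosome-free and 106 and 102 mononucleosome regions passed, a smaller excess towards L3 discs. With ranks over whole lists 46 nucleosome-free and 46 mononucleosome regions ranked higher in the controls. With 1 library left out the nucleosome-free counts ranged from 584 to 802 and from 340 to 584, and the mononucleosome counts from 308 to 578 and from 222 to 511. Without the X, 168 nucleosome-free and 70 mononucleosome regions ranked higher in L3 discs. With the replicate number as a block (replicate block), 394 and 234 nucleosome-free and 180 and 150 mononucleosome regions passed. Deviations of same-numbered libraries correlated at 0.0501 for nucleosome-free and 0.0977 for mononucleosome regions, over 2 pairs. So few pairs cannot show whether same-numbered libraries share more than a number. The causes of these moves were not tested. Peak lists without read counts limit what can be said of weak regions, which a slightly deeper library could add.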

Other observations

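Annotated transposable elements held 29 of the 1238 L3-only nucleosome-free regions and 15 of the 424 25 h-only regions, which were 6.99% and 3.61% of the 415 regions in elements, against 5.48% and 1.88% of all regions tested. On the L3 side, an H element (chr2L:20205172-20205353) lay at percentiles 62.4 and 51.3 and an INE-1 copy by Rlip (chr3R:21017581-21017734) at 50.9 and 51.3, with no peak in either 25 h control. In the controls, an INE-1 copy in tty (chrX:21332491-21332615) lay at 66.7 and 59.3 and a 1360 copy near CkIIalpha (chr3L:23103702-23103808) at 51.0 and 54.9, with no peak in L3 discs. Elements occur in many copies, and how reads matching several copies were placed is not given in the sources used here.

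Genes of the Wnt, Dpp and Hippo pathways held called regions near the share of all regions, 5.48% L3-only and 1.88% 25 h-only. Shares in the EGFR and Notch pathways were lower, but came from 5 L3-only and 1 25 h-only region and from 2 and 0. No difference from the share of all regions can be read from counts this small. The shares were 6.45% and 2.15% of 186 regions in the Wnt pathway and 4.02% and 1.72% of 174 in the Dpp pathway. In the Hippo pathway they were 6.82% and 1.14% of 88, and in the EGFR pathway 3.11% and 0.621% of 161. In the Notch pathway they were 2.30% and 0% of 87. Of 14 JNK cascade genes, bsk, which encodes the kinase itself, and kay, the Fos gene, held L3-only regions, and hep and Tak1, both upstream kinases, held 25 h-only regions. None of 11 oxidative stress genes held a called region in either direction. Of 8 apoptosis genes only Drice, an effector caspase, was L3-only and only hid, a death activator, was 25 h-only. Of all genes with a region, 13.4% held an L3-only and 4.78% a 25 h-only region, so lists this small would hold few such genes. Myoblast markers held 10 L3-only regions and 1 25 h-only region of 143, which were 6.99% and 0.699%. By nearest start, Pld held 6 L3-only regions of 29, ras 6 of 21, CadN 5 of 23 and spri 5 of 18. On the other side dor held 7 25 h-only regions of 10, lola 5 of 14, ovo 5 of 25 and the antisense gene CR44984 4 of 16. The highest ranked region nearest to dor, chrX:1659214-1659762, is the br exon region given above.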
